A study of Caenorhabditis elegans with 2 samples.

Results

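The cytosolic ribosomal protein genes were taken as every protein-coding gene of the Ensembl WBcel235 annotation named rpl (large subunit), rps (small subunit) or rla (the acidic proteins of the stalk). The rule found 81 of 19985 protein-coding genes, of which 47 were rpl, 31 were rps and 3 were rla genes. Their occupancy by the nuclear receptor NHR-67 was read from chromatin immunoprecipitation followed by sequencing (ChIP-seq), which recovers the DNA bound by a tagged protein. The animals were whole L3 larvae of Caenorhabditis elegans, males and females pooled, of strain OP373. Per the labels, the strain carries the unc-119(tm4063) mutation on chromosome III and the transgene wgIs373, which encodes eGFP-tagged NHR-67. All animals belonged to 1 group, sampled in 2 biological replicates, and there was no other genotype, treatment or stage. The antibody is labelled only as nhr-67, and which promoter or cells drive the transgene is not given in the sources used here. Both replicates carry the same mutation and transgene, and signal from each tissue of the larva is mixed in every value.

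Ribosomal proteins fold with ribosomal RNA into the small subunit, which decodes the messenger RNA, and the large subunit, which forms peptide bonds. The stalk of the large subunit, built by the rla products, recruits the GTP-binding translation factors. Most of these proteins are made in equal amounts, and their genes are among the most highly transcribed in growing tissue. In C. elegans a leader is trans-spliced onto many messages, and transcription then begins somewhat upstream of the start that is annotated. Some lie inside operons, in which 1 promoter serves a run of genes on the same strand. NHR-67 is the worm member of the tailless family, known from the anchor cell, the uterus and certain neurons, and tailless-family receptors of flies and vertebrates bind the letters AAGTCA.

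Regions were read from 3 candidate lists of the authors, called on replicate 1, on replicate 2 and on both together (pooled), and from the optimal list, which holds the peaks that passed the authors' reproducibility threshold. The candidate lists held 30000 regions in replicate 1, 19385 in replicate 2 and 30000 in the pooled list, and the optimal list held 137 peaks, 108 of them nuclear. Candidate lists of this kind include background by design, and a region in them is not a binding site by itself. Each region has a signal value given by the authors, whose exact meaning is not given in the sources used here and whose scale differs between lists. It is used as a score and ranked within each list, with rank 1 the highest. Ranks of the replicates are printed side by side, but the lists differ in length, so that neither a rank nor a signal shows a change from one list to another, and lists are set against each other only by membership of the strongest 1000. A gene was given the strongest region whose summit, the point of highest signal, lay within 1000 bp of any of its transcript starts. A summit position is negative when it lies upstream of the start in the direction of the gene. The number of reads behind each list is unknown, and both replicates were called against 1 shared control, so that the replicate lists are not fully independent. With 2 samples of 1 group no test was possible, and shares are descriptions, set beside the same share over all protein-coding genes where one was computed.

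The summits of the strongest member regions carried recurring letters, shown here for the 6 genes with an optimal peak upstream of their start. Each sequence is the 101 bp centred on the pooled summit, read 5′ to 3′ on the strand of the gene from the WBcel235 (ce11) reference. Capitals mark TACGGT and GCGTGT as well as CGCACA, each also as its reverse complement. TACGGT and GCGTGT were chosen after their counts had been seen. The first 4 sequences hold at least 1 capital run, and the windows of rps-12 and rps-28 hold none.
rpl-3 (chrIII:3867518-3867618, plus strand): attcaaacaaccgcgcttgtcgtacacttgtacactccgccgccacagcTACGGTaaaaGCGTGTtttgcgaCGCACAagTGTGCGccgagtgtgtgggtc
rpl-20 (chrIV:4750012-4750112, minus strand): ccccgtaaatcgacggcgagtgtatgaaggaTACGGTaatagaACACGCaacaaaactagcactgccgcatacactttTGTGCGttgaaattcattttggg
rpl-15 (chrIV:654848-654948, minus strand): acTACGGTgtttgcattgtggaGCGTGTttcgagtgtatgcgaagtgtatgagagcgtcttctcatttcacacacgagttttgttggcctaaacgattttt
rpl-35 (chrIII:7854659-7854759, plus strand): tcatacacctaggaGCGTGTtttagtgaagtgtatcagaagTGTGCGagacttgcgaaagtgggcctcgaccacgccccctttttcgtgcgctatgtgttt
rps-12 (chrIII:5679103-5679203, plus strand): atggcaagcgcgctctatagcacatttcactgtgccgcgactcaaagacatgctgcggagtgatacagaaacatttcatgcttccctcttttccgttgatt
rps-28 (chrIV:1659232-1659332, plus strand): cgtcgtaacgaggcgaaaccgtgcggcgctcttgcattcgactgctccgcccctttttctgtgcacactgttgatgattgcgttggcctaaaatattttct

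The window of rpl-3, the gene of the large subunit protein uL3 beside the peptidyl transferase centre, held 4 matches in 101 bp. TACGGT lay 1.5 bp from the summit, and GCGTGT and then CGCACA on both strands followed on its 3′ side. The window of rpl-20 held the same 3 kinds of match, with TACGGT 16.5 bp from the summit. The window of rpl-15 held TACGGT near its 5′ end and GCGTGT, and that of rpl-35 held GCGTGT and the reverse complement of CGCACA but no TACGGT. Of the 3 kinds only GCGTGT, on either strand, was in all 4 windows, and the windows of rps-12 and rps-28 held none of them. Since TACGGT and GCGTGT were chosen after their counts had been seen, this describes these windows only. The GC content of the 4 windows ran from 43.6% in rpl-15 to 55.4% in rpl-3.

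A candidate region lay near most ribosomal protein genes. In the pooled list 71 of the 81 genes had a region (87.7%), against 53.1% of all protein-coding genes. Replicate 1 had a region at 64 of the 81 (79.0%, against 53.4% of all genes) and replicate 2 at 63 (77.8%, against 38.8%). Both replicates had one at 49 genes (60.5%, against 24.1% of all genes). The share was above that of all genes in each list. Among the strongest 1000 regions of the pooled list were the regions of 21 members (25.9%, against 3.62% of all genes). The same was true of 21 members in replicate 1 (25.9%, against 3.26%) and 16 in replicate 2 (19.8%, against 3.07%). When a region counted for its nearest gene alone, 14 members were in the strongest 1000 of the pooled list (17.3%, against 2.74%). An optimal peak lay near 7 members (8.64%), where 0.575% of all genes had one. The 7 peaks were distinct, and they made up 7 of the 108 nuclear optimal peaks.

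**Figure D1:**
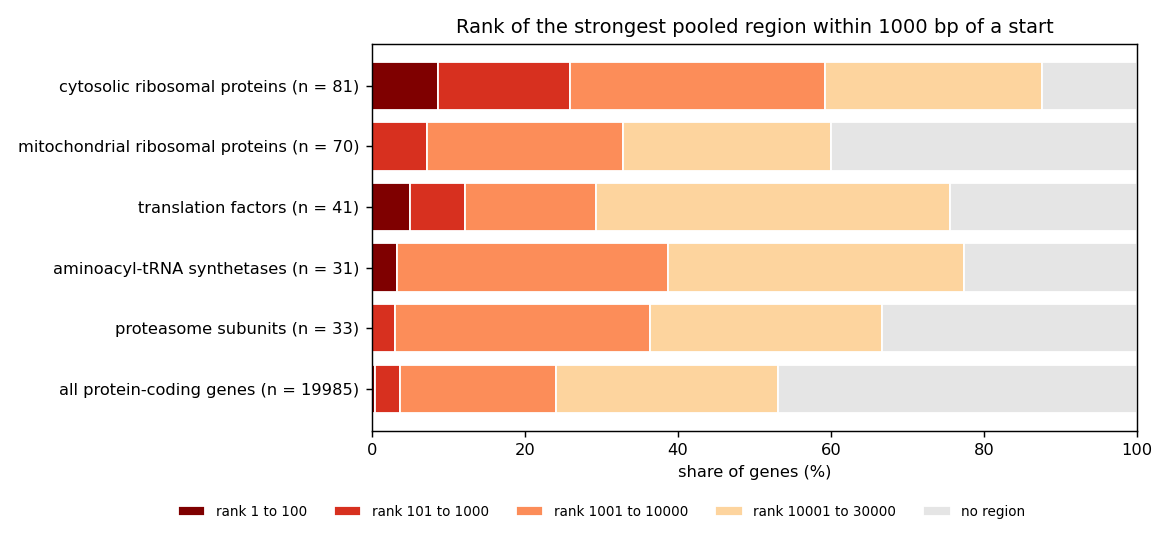
Share of genes (%, horizontal axis) whose strongest pooled region within 1000 bp of a start fell into each rank range, for the ribosomal protein genes, the related gene lists and all protein-coding genes. The ranks 1 to 100 and 101 to 1000 hold 8.64% and 17.3% of the 81 ribosomal protein genes, against 0.380% and 3.24% of all genes.

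Both subunits shared in this. A pooled region was present at 41 of 47 large subunit genes and 28 of 31 small subunit genes, and the strongest 1000 held 12 and 9 of them. The median pooled rank was 4323 for the large subunit and 3861 for the small subunit. Over all members with a region the median rank was 4214, with quartiles of 560 and 13907, while over all protein-coding genes with a region it was 11455. The family was therefore spread over the whole list, from rank 29 to rank 29663, with 7 genes in ranks 1 to 100, 14 in ranks 101 to 1000, 27 in ranks 1001 to 10000, 23 beyond that and 10 without a region.

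The highest signal of the family was at rpl-3 (WBGene00004414, chrIII:3867440-3867695), with pooled signal 90.6 at rank 29. Its signal was 65.1 in replicate 1 (rank 30) and 30.4 in replicate 2 (rank 24), and the summits lay 274 and 316 bp upstream of the start. In each list rpl-3 had the highest signal of all 81 members. Of the regions ranked above it in the pooled list, 27 were mitochondrial.

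Next in the pooled list came rpl-20, which encodes a large subunit protein (WBGene00004432, chrIV:4749934-4750189, signal 50.8, rank 41). Its signal was 31.2 in replicate 1 (rank 63) and 11.9 in replicate 2 (rank 85), at 323 and 293 bp upstream. The gene Y17G9B.5 starts on the opposite strand 462 bp away and was nearer to the pooled summit than rpl-20 was. The peak can thus be assigned to either gene of this divergent pair.

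The region of rpl-15, a large subunit protein gene (WBGene00004427, chrIV:654770-655025), had pooled signal 49.0 at rank 42. In replicate 1 it had signal 40.5 at rank 39, and in replicate 2 it had signal 6.54 at rank 1183. It was thus among the strongest 1000 in replicate 1 and in the pooled list but not in replicate 2. The summits of the replicates lay 40 bp apart.

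Of the small subunit, rps-12 (WBGene00004481, chrIII:5679025-5679280) had pooled signal 45.3 at rank 47, with signal 38.6 in replicate 1 (rank 47) and 8.52 in replicate 2 (rank 328). Its summits lay 168 bp upstream in replicate 1 and 23 bp downstream in replicate 2, 191 bp apart. The region of rps-28 (WBGene00004497, chrIV:1659154-1659409), another small subunit gene, had pooled signal 38.2 at rank 69. It had signal 32.3 at rank 58 in replicate 1 and signal 8.88 at rank 274 in replicate 2, with summits 13 bp apart and about as far upstream as the pooled summit at 409 bp. Both genes ranked in the strongest 1000 of both replicates.

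The other optimal peaks were at rpl-35 and rpl-27, both of the large subunit. The region of rpl-35, whose product sits near the exit of the peptide tunnel (WBGene00004449, chrIII:7854581-7854836), had pooled signal 32.6 at rank 96. Its signal was 20.6 in replicate 1 (rank 205) and 9.77 in replicate 2 (rank 180), and the pooled summit was 425 bp upstream. The peak at rpl-27 (WBGene00004441) lay on chromosome I from 1835503 to 1835758, with pooled signal 33.3 at rank 91, signal 22.4 in replicate 1 (rank 145) and 12 in replicate 2 (rank 80). Unlike the other 6 it lay downstream of the member, 748 bp past the start, where the nearest start was that of egl-30, the gene of a G protein alpha subunit. The gene C53H9.2 ends 120 bp upstream of rpl-27 on the same strand, a spacing found within operons.

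The gene with the nearest start was the member at 5 of these 7 peaks, and all 7 summits were intergenic. In the strongest 1000 regions of both replicates there were 7 members (8.64%, against 0.64% of all genes), namely rpl-3, rpl-12, rpl-20, rpl-27, rpl-35, rps-12 and rps-28. Apart from rpl-12, all of these had an optimal peak. At each of the 7 optimal peaks near members, signal and rank equalled those in the pooled list. The 7 genes are those in pooled ranks 1 to 100, so that the optimal list is no separate measure of their signal. The members just inside and just outside the strongest 1000 of the pooled list were rps-7 (signal 17.3, rank 775) and rps-29 (signal 15.8, rank 1210).

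**Figure D2:**
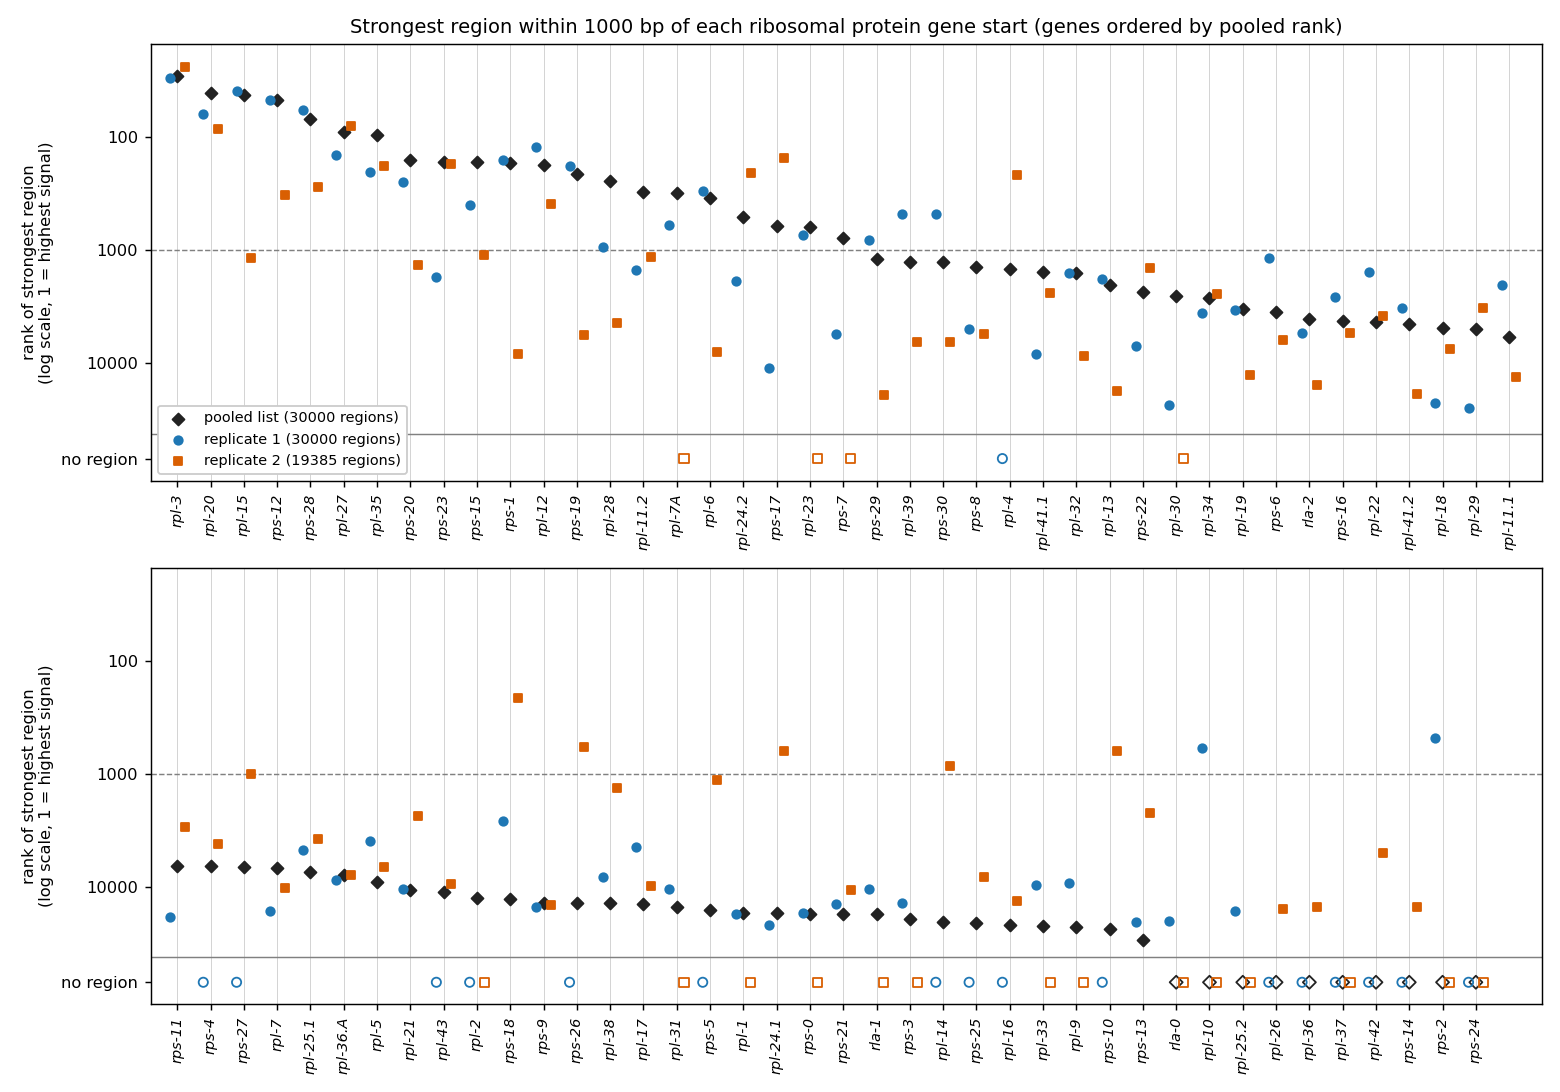
Rank of the strongest region within 1000 bp of each of the 81 genes (log scale, 1 is the highest signal) in the pooled list and in each replicate, with genes ordered by pooled rank. The points of rpl-3 lie at ranks 29, 30 and 24, and the replicates scatter more widely around the pooled order to the right of the first genes.

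Between rank 101 and 1000 of the pooled list lay 14 further members, and most of them were in the strongest 1000 of a single replicate or of neither. The regions of rps-20, rps-15, rps-1 and rps-19, all small subunit genes, had pooled ranks of 161, 166, 168 and 212. In replicate 1 these 4 genes ranked 250, 397, 158 and 180, and in replicate 2 they ranked 1353, 1110, 8375 and 5607. They were thus among the strongest 1000 of replicate 1 and not of replicate 2.

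The reverse held at rps-23, rpl-24.2 and rps-17, which were among the strongest 1000 of replicate 2 and not of replicate 1, with pooled ranks of 165, 509 and 611. In replicate 1 they ranked 1732, 1872 and 11148, and in replicate 2 they ranked 172, 210 and 152. The product of rps-23 is the small subunit protein uS12 of the decoding centre. At rps-17 the replicate summits lay 17 bp apart, with signal 7.26 in replicate 1 and 10.2 in replicate 2, each on the scale of its own list.

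The remaining genes in this range were rpl-12, rpl-28, rpl-11.2, rpl-7A, rpl-6, rpl-23 and rps-7. The region of rpl-12, whose product forms the base of the stalk, had pooled rank 177 at 41 bp upstream and rank 122 in replicate 1. Its strongest region in replicate 2 was another one, at rank 393 and 469 bp downstream. The region of rpl-28 (pooled rank 246) lies between this gene and mrpl-49, a mitochondrial ribosomal protein gene transcribed the other way and nearer to the summit. The paralogs rpl-11.2 and rpl-11.1, which encode versions of the protein uL5, had pooled ranks of 308 and 5923. The region of rpl-6 had pooled rank 349 and ranked 302 and 8002 in replicates 1 and 2. Replicate 2 had no region at rpl-7A, rpl-23 or rps-7, whose pooled ranks were 314, 628 and 775, and replicate 1 ranked them 600, 737 and 5515.

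Outside the strongest pooled regions, single replicates placed other members high. In replicate 1 the strongest 1000 included rps-29 (rank 814), rpl-10 (589), rps-2 (483) and the divergent pair rpl-39 and rps-30, which share 1 region (484). In replicate 2 they included rps-18 (rank 214), rpl-4 (217), rps-26 (585), rpl-14 (852) and the divergent pair rpl-24.1 and rps-10, which share 1 region (633). Counting either replicate, 30 of the 81 members were reached. The share over all genes was not computed for this count. It can be no larger than the sum of the single shares over all genes, 3.26% in replicate 1 and 3.07% in replicate 2. In both were 7 members (8.64%, against 0.64% of all genes), with rpl-12 counted by a different region in each replicate. Of the 30, rps-18, rps-26, rpl-14, rpl-24.1 and rps-10 had pooled ranks beyond 10000. At rps-18 and rps-10 the strongest pooled region overlapped that of replicate 2. At rps-26, rpl-14 and rpl-24.1 it was a different region, so that the ranks there belong to separate sites.

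Replicate support for the pooled regions was lower at weaker ranks, as it was over all genes. Of the 71 pooled member regions, 28 overlapped a region in both replicates, 26 in replicate 1 alone, 12 in replicate 2 alone and 5 in neither. The share with both was 39.4%, against 18.0% over the 10610 genes with a pooled region. Within the strongest 1000, 17 of 21 overlapped regions of both replicates (80.95%, against 61.2%), and the other 4 (rpl-28, rpl-7A, rpl-23 and rps-7) overlapped replicate 1 alone. From rank 1001 to 10000, 9 of 27 overlapped both (33.3%, against 24.9%), and beyond rank 10000 2 of 23 did (8.70%, against 7.79%).

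At the 49 members with a region in both replicates, the strongest regions overlapped by at least 1 bp for 22 (44.9%, against 31.4% of the 4821 genes of the whole annotation with a region in both). Where they overlapped, the median distance between the summits was 54 bp, against 105 bp over all genes. Summits within 100 bp of each other were found at 20 members (40.8%, against 15.2%). At 27 members (55.1%, against 68.3% of the 4821 genes) the summits lay over 300 bp apart, so that different regions were the strongest. Of the 21 genes in the strongest 1000 of the pooled list, rpl-12 and rpl-28 were in this group. The others were rla-2, rpl-5, rpl-7, rpl-11.1, rpl-17, rpl-19, rpl-21, rpl-22, rpl-24.1, rpl-25.1, rpl-29, rpl-32, rpl-34, rpl-38, rpl-41.1, rpl-41.2, rps-6, rps-8, rps-9, rps-11, rps-13, rps-16, rps-18, rps-22 and rps-29.

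Across the 49 genes the signal of the replicates had a Spearman rho of 0.31, and the log2 signal a Pearson r of 0.45, against 0.16 and 0.24 over the 4821 genes. For the 22 overlapping pairs the values were 0.41 and 0.55, against 0.34 and 0.42 over the 1512 overlapping pairs of all genes. The genes share libraries and control and are not independent points. The plot of both signals shows rpl-3 apart from the others and most members at low signal in both replicates.

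**Figure D3:**
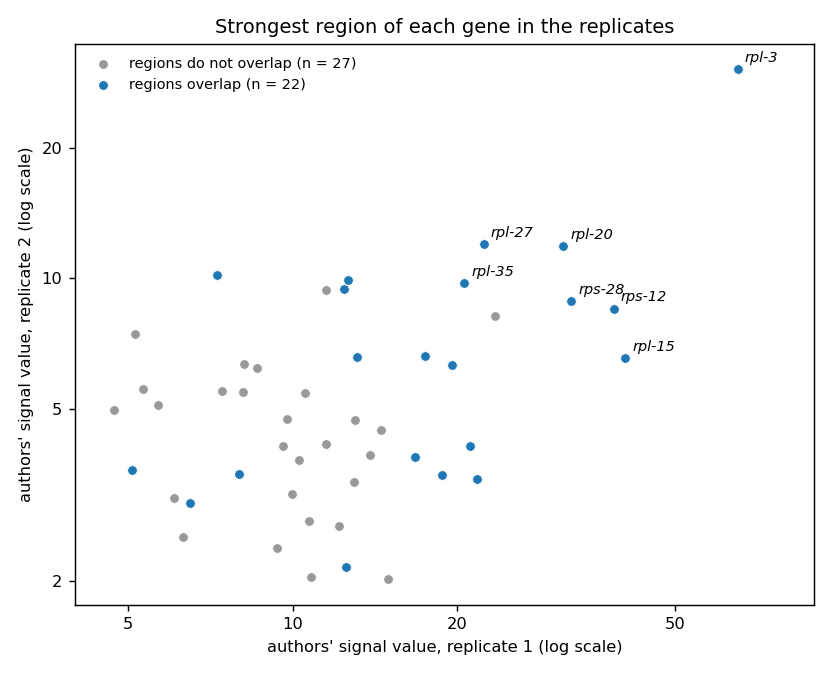
The authors' signal value of the strongest region of each of the 49 genes with a region in both replicates (log scales, replicate 1 horizontal, replicate 2 vertical), with overlapping and separate regions marked apart. The gene rpl-3 lies alone at the upper right, at signal 65.1 and 30.4.

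Summits gathered upstream of the starts. The median position of the pooled summit was 276 bp upstream, with quartiles of 399 and 25.5 bp upstream, while over all genes with a region the median was 78 bp upstream. It was 242.5 bp upstream in replicate 1 and 235 bp upstream in replicate 2. When a region counted for its nearest gene alone, the median position was -42 bp, and -11 bp over all genes. Upstream summits were found at 55 of 71 members (77.5%, against 55.7% of all genes), and 44 lay within 500 bp upstream (62.0%, against 33.8%). From 400 to 200 bp upstream lay 29 summits (40.8%, against 13.2% of all genes), and the next 100 bp toward the start held 2. Within the strongest 1000, 20 of 21 members had their summit within 500 bp upstream (95.2%), where 52.8% of the 724 genes with such a region did. The exception was rpl-27.

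**Figure D4:**
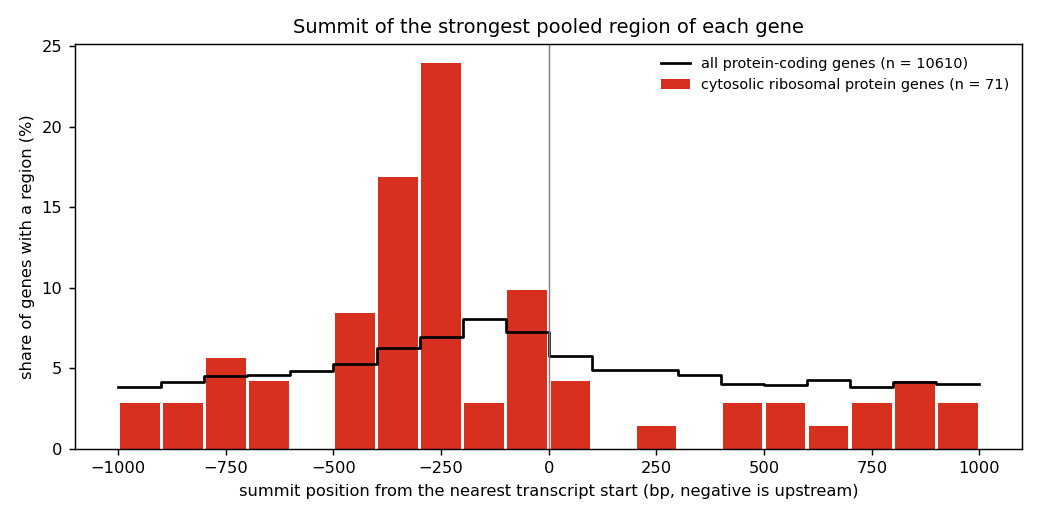
Position of the pooled summit from the nearest start of the gene (bp, negative is upstream, in bins of 100 bp) as a share of genes with a region (%), for the 71 ribosomal protein genes and all 10610 protein-coding genes. The bins from 400 to 300 and from 300 to 200 bp upstream hold 16.9% and 23.9% of the ribosomal protein genes, against 6.24% and 6.94% of all genes.

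In the strongest 1000, 19 of 21 summits were intergenic (90.5%, against 59.7% over all genes). Over all 71 members, 42 were intergenic (59.2%, against 37.9%), 24 in an annotated exon of some gene and 5 in an intron. The member itself had the nearest start for 43 of the 71 (60.6%, against 85.8%), and another gene for 28. At a divergent pair the region can be set to either gene. Members with a same-strand gene ending within 500 bp upstream were set apart first. Of the rest, 48 had an opposite-strand gene starting within 1000 bp upstream. Of these 48, 11 were in the strongest 1000 of the pooled list (22.9%, against 6.99% of all genes so placed). Of the 24 members with neither such a gene nor a close upstream neighbour on the same strand, 7 were (29.2%, against 2.73%). In replicate 1 the order of these shares was the other way, with 29.2% of the divergent members (5.70% of all such genes) and 20.8% of the others (2.64%). Of the 9 members within 500 bp downstream of a same-strand gene, 3 were in the strongest 1000 of the pooled list (33.3%, against 3.47%), namely rpl-27, rps-17 and rps-7. The gap to that gene was 120 bp at rpl-27, 481 bp at rps-17 and 479 bp at rps-7. Whether these members lie in operons was not tested. Among divergent neighbours nearer to the summit were ekl-4 at rps-20, dpm-3 at rps-23 and hsr-9 at rps-19.

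Members of the strongest 1000 lay on chromosomes I (7 of 25 members), III (6 of 18), IV (6 of 18), V (1 of 8) and X (1 of 2). On chromosome II there were 0 of 10, and 7 of those 10 had a weaker pooled region. Over all genes the share in the strongest 1000 was 3.07% on chromosome II and ran from 2.74% on V to 5.11% on III. In replicate 1 alone 1 gene of chromosome II, rpl-10, was among the strongest 1000.

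No stalk gene was in the strongest 1000 of any list. The gene rla-2 had a pooled region of signal 11.8 at rank 4107, 814 bp downstream of its start, and ranked 5410 in replicate 1, at 958 bp upstream, and 15683 in replicate 2, at 890 bp downstream. The gene rla-1 had pooled signal 7.18 at rank 17506 and ranked 10382 in replicate 1, with no region in replicate 2. The gene rla-0, which encodes the protein uL10 that anchors the stalk, had a region in replicate 1 alone, with signal 5.40 at rank 20232. The pooled rank of rla-2 was close to the family median of 4214, and 3 genes are too few to set the stalk apart from the rest.

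The 10 members without a pooled region differed among themselves. In replicate 1 rpl-10 had a region of signal 16 at rank 589 and rps-2 a region of signal 16.7 at rank 483, at 926 and 456 bp downstream of the start. The nearest pooled summit was 3519 bp from the former and 701 bp from the latter. Such cases were rare in replicate 1, where 16 of its strongest 1000 regions (1.6%) overlapped no pooled region, and less so in replicate 2, where 201 (20.1%) did not.

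The other genes without a pooled region were rla-0, rpl-25.2 (rank 16475 in replicate 1), rpl-26 (15884 in replicate 2), rpl-42 (5072 in replicate 2) and the pair rpl-36 and rps-14, which share a region of replicate 2 at rank 15225. Neither rpl-37 nor rps-24 had a region in any list. The pooled summit nearest to rps-24 lay 1072 bp from its start, just outside the window, and the one nearest to rps-2 lay at 1157 bp and had rank 312. Just inside the window was the summit of rpl-5, 983 bp upstream. The absence of a region shows only that none passed the lists' limits at a depth that is unknown.

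Within 50 bp of the pooled summit, the receptor's letters AAGTCA occurred on either strand at 3 of 70 distinct member regions (4.29%), and at 4.49% of the 9269 regions of all genes. None of the 21 strongest member regions held AAGTCA, and 3.10% of the 549 strongest regions of all genes did. Of 4 hexamers that earlier results of these data had picked out at strong summits, CGCGCA was found at 0 member regions (2.60% over all genes), CGCACA at 4 (5.71%, against 2.79%), CTGCGC at 4 (5.71%, against 1.68%) and CCCTGC at 2 (2.86%, against 1.19%). CGCGCA occurred at 11.8% of the 549 strongest regions of all genes, and at 0 of the 21 of the family. The CGCACA regions were those of rpl-3, rpl-7A, rpl-20 and rpl-35, all in the strongest 1000.

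TACGGT was found at 16 of the 70 regions (22.9%, against 2.81% over all genes) and at 10 of the 21 strongest (47.6%, against 5.83%). These 10 were rpl-3, rpl-6, rpl-15, rpl-20, rpl-24.2, rpl-27, rps-1, rps-17, rps-20 and rps-23, of both subunits. GCGTGT was at 12 regions (17.1%, against 2.38%) and at 8 of the 21 strongest (38.1%, against 7.65%). Around the summits of replicate 1, TACGGT was at 15.9% of member regions against 3.02% over all genes, and around those of replicate 2 at 26.7% against 3.10%. Since both hexamers were chosen for their counts, these shares describe the regions they were found in. Member windows were also richer in GC, with a median of 43.1% against 35.6%, and its part in the letter counts was not tested.

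TACGGT was also counted upstream of member genes, whether or not a region lay there. This count is not separate from that at the summits. TACGGT was chosen for its counts, and 44 of the 71 pooled member summits lay within 500 bp upstream. In the 500 bp upstream of the outermost start it occurred at 36 of 81 members (44.4%), at 25 of 47 large subunit genes, 11 of 31 small subunit genes and 0 of 3 stalk genes. Over 19973 protein-coding genes the share was 13.9%, and it was 15.7% for mitochondrial ribosomal protein genes, 19.5% for translation factors, 12.9% for aminoacyl-tRNA synthetases and 21.2% for proteasome subunits. Of the 36 members with it, 11 were in the strongest 1000 of the pooled list (30.6%), and of the 45 without it, 10 were (22.2%). In replicate 1 the order was the other way, with 22.2% of those with it and 28.9% of those without it, and in replicate 2 the shares were 22.2% and 17.8%. Over all genes the shares with and without it were 5.03% and 3.40% in the pooled list, 3.99% and 3.14% in replicate 1, and 3.88% and 2.94% in replicate 2. GCGTGT lay upstream of 18 of 81 members (22.2%, against 9.56% of all genes). The share was higher for translation factors, at 29.3%. It was 17.1% for mitochondrial ribosomal protein genes, 3.23% for aminoacyl-tRNA synthetases and 18.2% for proteasome subunits. Of the members with and without GCGTGT, 38.9% and 22.2% were in the strongest 1000 of the pooled list. The shares were 44.4% and 20.6% in replicate 1, and 33.3% and 15.9% in replicate 2. Over all genes the shares with and without GCGTGT were 5.40% and 3.44% in the pooled list. They were 4.82% and 3.09% in replicate 1, and 4.66% and 2.91% in replicate 2. Among members the order was the same in each list for GCGTGT, and also for AAGTCA and CTGCGC, and for TACGGT it was not. Over all genes the order for AAGTCA was the reverse in each list. Its shares with and without were 3.04% and 3.79% in the pooled list. They were 2.81% and 3.38% in replicate 1, and 2.85% and 3.14% in replicate 2. The letters AAGTCA lay upstream of 22.2% of members and 21.6% of all genes. At 30 of the 71 members with a pooled region TACGGT lay within 300 bp of the summit, at a median distance of 46 bp. Neither value was computed over all genes, so that neither can be set against a background. Within 100 bp of the summit TACGGT was at 22 of 70 distinct member regions (31.4%, against 5.91% over all genes). Since TACGGT was chosen for its counts, these values describe these regions only.

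Other genes of protein synthesis and turnover were read by the same rule. Of 70 mitochondrial ribosomal protein genes, 42 had a pooled region (60%, against 53.1% of all genes). In the strongest 1000 were 5 of them (7.14%, against 3.62%), and none had an optimal peak. Those 5 were mrpl-28 (rank 208), mrpl-23 (210), mrpl-49 (246, the region shared with rpl-28) and the pair mrpl-1 and mrps-24 (331, 1 region). Of 41 translation factor genes, 31 had a region (75.6%), 5 were in the strongest 1000 (12.2%) and 2 had an optimal peak (4.88%, against 0.575% of all genes). These were eef-1G, a subunit of the elongation factor complex (rank 76), and iff-2, an eIF5A gene (rank 93), followed by eef-1A.1 (139), eif-1.A (380) and eif-3.C (454).

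Of 31 aminoacyl-tRNA synthetase genes, 24 had a region (77.4%, against 53.1% of all genes). In the strongest 1000 was 1 of them (3.23%, against 3.62%), ears-2, with an optimal peak (rank 73). Of 33 proteasome subunit genes, 22 had a region (66.7%) and 1, rpn-7, was in the strongest 1000 (3.03%, rank 420). The median pooled ranks of these 4 lists were 8316, 13738, 11091.5 and 7563.5 in the order given. The median was 4214 for the cytosolic ribosomal protein genes and 11455 for all protein-coding genes. Outside the naming rule, ubl-1, which encodes a ubiquitin-like protein fused to a small subunit protein, had pooled signal 27.3 at rank 143, 233 bp upstream, and rank 133 in replicate 1, with no region in replicate 2. The ubiquitin fusion gene ubq-2 had no pooled region, and rack-1, the gene of a small subunit scaffold protein, ranked 28850.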

How the data were processed

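ChIP-seq of tagged NHR-67 was carried out in 2 biological replicates of 1 group. Which aligner and peak caller were used is not given in the sources used here. Per the text records deposited beside the files, alignments and 1 control (not analysed here) gave the candidate lists, and the pooled and replicate lists gave the optimal list. The authors deposited for each region a signal value, used as a score to rank and describe regions within a list. Depth is unknown, so no interval or floor was computed. Only the ce11 lists were used, with the Ensembl 115 annotation and the RefSeq sequence of that assembly, whose chromosome ends 0 regions crossed. Coordinates are 1-based, and tied signals share the lowest rank.

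Analysis used Python 3.11.15, pandas 2.3.3 and numpy 2.4.6, and region assignment was tested on simulated data. Named genes were members with an optimal peak, in the strongest 1000 pooled regions, among the 10 highest in any list, without a pooled region, with replicate summits over 300 bp apart, or of the stalk, and related genes with an optimal peak or a region in the strongest 1000. Members just inside or outside a threshold, and those of the strongest 1000 in a replicate, were named beside them, and rpl-11.1 as a paralog. The members, gene lists and hexamers were chosen with earlier results of these data known. The related lists were taken by gene name. Alternatives were other windows (500 and 2000 bp), the outermost start, the nearest gene alone, other list sizes, nuclear regions alone, the region nearest to a start, each replicate alone and other overlap rules.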

Additional observations from a re-analysis of the deposited data

How the results depend on the processing

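Of 61 alternatives 42 kept their value within the set limits, 19 moved and 0 reversed. The limits were set separately for counts, medians and shares. A reversal meant a change of sign, which only the summit positions and the correlations could show. Counts, ranks and shares could not reverse, so that the 0 says nothing about them. Alternatives of the correlation had no limit and were labelled moved whatever their size. The median pooled rank of members (4214) was 4893 with a 500 bp window, 3430.5 with 2000 bp, 6763 when a region counted for its nearest gene alone, 7789 for the summit nearest to a start, and 3319 to 3837 in the single replicates, whose lists differ in length. In each case the median over all genes was larger. The median summit position (-276 bp) was -242 with 500 bp, -259 with 2000 bp, -284 from the outermost start, -42 for the nearest gene alone (-11 over all genes), -220 for the summit nearest to a start, and -242.5 to -235 in the single replicates. Members with regions in both replicates (49) were 24 when any pair of their regions, not only the strongest, had to have summits within 100 bp (5.70% of all genes). The replicate correlation (Spearman rho 0.31) was 0.45 as Pearson r on log2 signal and 0.41 over overlapping pairs. The share of member regions with AAGTCA (4.29%) was 0 to 4.76% in the single replicates. The cause of these moves was not tested, beyond the construction of each alternative. No paired analysis was possible because the series has 1 group. The unknown depth limits what the absence of a region can show, annotated starts limit the positions, and divergent promoters limit the assignment to a gene.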
